A study of Danio rerio with 6 samples.

Results

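The genes described here are 10 genes of bone morphogenetic protein (BMP) signalling and dorsoventral patterning in the zebrafish embryo: bmp2b, bmp4, bmp7a, chrd, vox, vent, ved, bambia, szl and id3. They are a list of names, with no threshold on their values, and were looked up by symbol in a table of Ensembl gene identifiers. The list was drawn up with earlier results of these data known, so counts of its genes below are descriptions. The 10 names matched 12 of the 32266 rows of the deposited table, because the symbols BMP2 and BAMBI each stand for a pair of rows and carry no letter that tells the paralogs apart. The symbols BMP4 and ID3 are likewise used here as that table writes them. Of the 12 rows, 11 had a value other than 0 in some library and 8 passed the filter on low values and were tested. Gene expression was measured in sorted embryonic cells of 3 groups with 2 libraries each, all of strain AB and labelled as 9 h post fertilization, although the study's methods place the dissociation slightly earlier. ‘Mosaic’ cells were GFP-positive cells from embryos injected with a plasmid in which the hsp70 promoter drives GFP and constitutively active β-catenin (β-catCA), so that scattered cells with high Wnt/β-catenin activity lie among normal cells. ‘Ubiquitous’ cells were GFP-positive cells from embryos of a single transgenic line that carries GFP and β-catCA behind the same promoter, in which heat shock induces β-catCA throughout the embryo. ‘Uninjected’ cells, from embryos that received no plasmid, went through a comparable sort as the control, and the sources do not say whether their embryos were heat-shocked. Embryos were pooled within each group, and the 2 libraries of a group are labelled as lots 1 and 2. What a lot is, and whether the lots were separate batches of embryos, is not given, so the p-values below measure only the spread between these libraries.

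BMPs are secreted ligands that form a gradient along the dorsoventral axis of the gastrula, with high signalling on the ventral side. Ligand dimers bind receptor serine/threonine kinases, which phosphorylate Smad1, Smad5 and Smad9, and these enter the nucleus with Smad4 and turn on ventral genes. On the dorsal side the organiser secretes Chordin, which binds BMPs and keeps them from their receptors. Maternal Wnt/β-catenin signalling sets up the organiser, and later Wnt signalling from the margin acts with BMP on ventral and posterior cells, so the genes of this axis are a natural place to look in cells that carry β-catCA.

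The table holds regularized logarithms (rlog), which are counts scaled for library size, put on the log2 scale and drawn toward each gene's mean, more strongly where counts are low. Counts of unique molecules were inferred from them by inverting that transformation, and are given as CPM, the usual scaling of a gene's count by its library's total. Totals were 217242 and 240223 counts in ‘Mosaic’, 345593 and 34540 in both ‘Ubiquitous’ and 58352 and 489310 in ‘Uninjected’ libraries, so the second ‘Ubiquitous’ and the first ‘Uninjected’ library were much shallower than the rest. In these shallow libraries 14.4% and 4.97% of the 3905 tested genes had no count, against at most 0.1% in the other 4. CPM values carry exact 95% Poisson intervals, which cover counting error only. For a count of 0 the limit quoted is 3 counts, which is 86.9 CPM in the second ‘Ubiquitous’ library, where the exact interval that the plot of CPM shows reaches 107 CPM. The row of CTNNB1, which encodes β-catenin, held 1966 and 2011 CPM in ‘Mosaic’, 1519 and 1303 CPM in ‘Ubiquitous’ and 1731 and 1253 CPM in ‘Uninjected’ libraries and passed in no comparison. In the study's methods β-catCA is a truncated form of mouse β-catenin, while reads were aligned to the zebrafish genome. Whether any of its transcripts were counted on this row is not given in the sources used here. The row therefore does not check the labels, and no row carried the symbol ctnnb2.

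None of the 8 tested rows passed an adjusted p-value of 0.1 in limma's test in any of the 3 comparisons. Of all 3905 genes tested, 1.38% passed in the comparison of ‘Mosaic’ with ‘Uninjected’ cells (0.538% as higher and 0.845% as lower in ‘Mosaic’). With ‘Ubiquitous’ set against ‘Uninjected’ cells 0.487% passed (0.154% higher, 0.333% lower), and with ‘Mosaic’ set against ‘Ubiquitous’ cells 1.33% (0.512% higher, 0.819% lower). At an unadjusted p-value under 0.05, 3 of the 8 rows (BMP2, BAMBI and ID3, all with lower values in ‘Mosaic’) stood out between ‘Mosaic’ and ‘Uninjected’, where 11.3% of all tested genes did so in either direction and 5.61% with lower values in ‘Mosaic’. With all libraries, the same 3 rows stood out after quantile normalization (11.8% of all tested genes), median centring (11.6%) and a robust variance prior (11.6%). Voom left 2 of 8, BAMBI and ID3 (12.0%), and a negative binomial model of inferred counts 0 of 8 (4.17%). Leaving out a library of either group leaves that group with 1, so only differences follow, for BMP2, BAMBI and ID3 in turn. They were -0.335, -0.427 and -0.472 without the first ‘Uninjected’ library and in the 4 deepest libraries. Without the second they were -0.688, -0.735 and -0.809. Without the first ‘Mosaic’ library they were -0.413, -0.803 and -0.607, and without the second -0.61, -0.36 and -0.674. In the main fit, with all libraries, 0 of 8 rows stood out by this unadjusted measure when the other groups were compared. There the share of all tested genes was 6.76% for ‘Ubiquitous’ against ‘Uninjected’ (3.89% lower in ‘Ubiquitous’) and 13.0% for ‘Mosaic’ against ‘Ubiquitous’ (5.51% lower in ‘Mosaic’). Under some other settings with all libraries 1 of 8 did so. Between ‘Ubiquitous’ and ‘Uninjected’ it was chrd with quantile normalization (6.94% of all tested genes), median centring (6.99%), a robust variance prior (6.99%) and voom (7.73%). Between ‘Mosaic’ and ‘Ubiquitous’ it was BMP2 with quantile normalization (13.1%). The median difference of the 8 rows was -0.14, -0.16 and -0.19 on the rlog scale in these 3 comparisons, against 0.02, -0.03 and 0.05 for all tested genes. These are bulk samples, so fewer cells of a type and less RNA per cell cannot be told apart. With 2 libraries per group the 95% intervals of the differences were wide, and a p-value that misses the threshold does not show that the groups had equal levels.

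**Figure D1:**
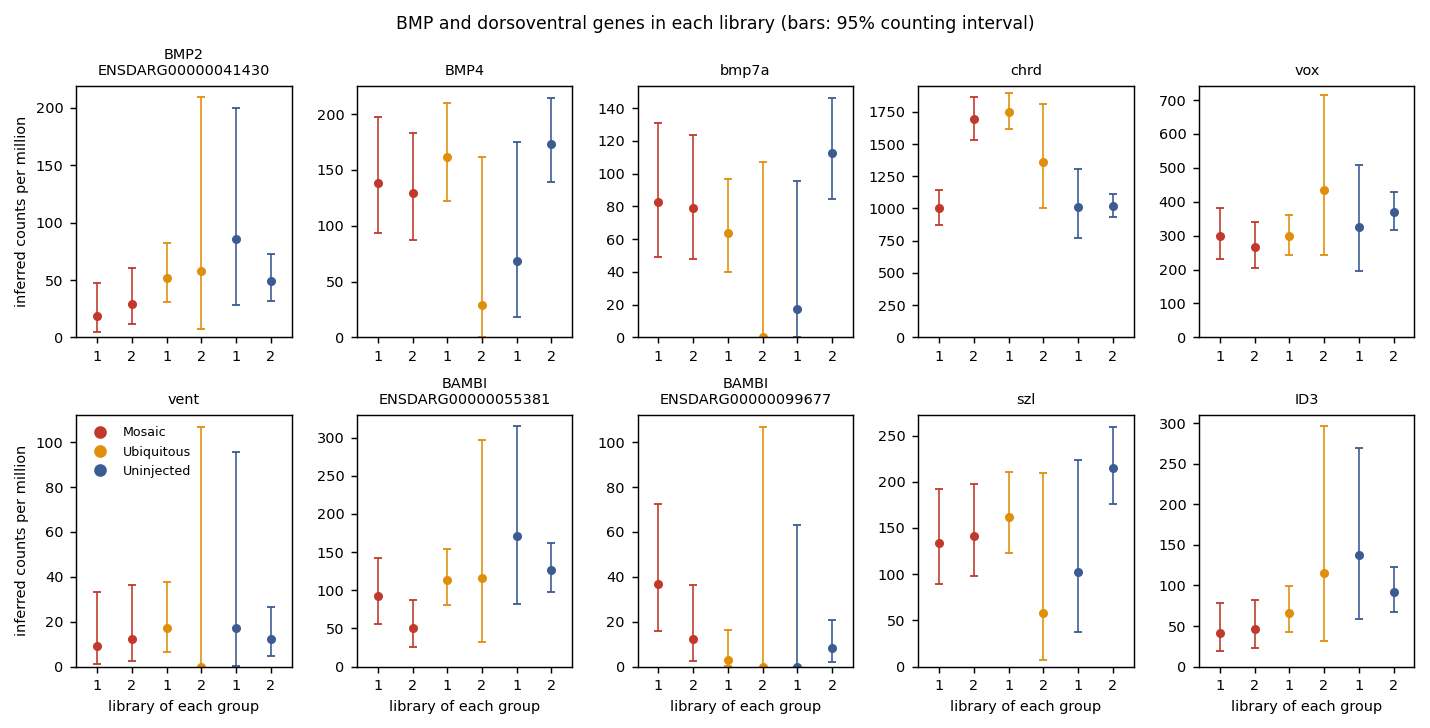
Inferred CPM (vertical axis, linear) of the 10 rows with more than 10 counts in all, in each of the 2 ‘Mosaic’, 2 ‘Ubiquitous’ and 2 ‘Uninjected’ libraries (horizontal axis). Points are libraries and bars their exact 95% Poisson intervals. The widest bars belong to the second ‘Ubiquitous’ library, with 34540 counts, and for chrd the intervals of both ‘Mosaic’ libraries do not meet.

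The ligands were described first. Bmp2b and Bmp7a act together as a heterodimer that signals in the early gastrula, and Bmp4 adds to BMP signalling on the ventral side. BMP2 (ENSDARG00000041430) had 18.4 and 29.1 CPM in ‘Mosaic’, 52.1 and 57.9 CPM in ‘Ubiquitous’ and 85.7 and 49.0 CPM in ‘Uninjected’ libraries, from 4 and 7, 18 and 2, and 5 and 24 counts. Both ‘Mosaic’ libraries lay below the other 4, which overlapped among themselves. On the rlog scale BMP2 averaged 2.48 ± 0.14 in ‘Mosaic’, 2.89 ± 0.002 in ‘Ubiquitous’ and 2.99 ± 0.25 in ‘Uninjected’ cells (SD, n = 2 each). Its difference between ‘Mosaic’ and ‘Uninjected’ was -0.51 (95% interval -0.96 to -0.06, adjusted p = 0.362 from limma's test), which is not past the threshold, and it was -0.34 without the first ‘Uninjected’ library. Between ‘Mosaic’ and ‘Ubiquitous’ it was -0.41 (-0.86 to 0.04, adjusted p = 0.422 from limma's test). Since these values rest on few counts they are drawn strongly toward the mean: as a ratio of inferred counts with no shrinkage, the difference from ‘Uninjected’ was -1.33 on the log2 scale (adjusted p = 0.9997 in a negative binomial likelihood-ratio test). The other BMP2 row (ENSDARG00000013409) was listed at 0 in all 6 libraries.

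BMP4 (ENSDARG00000019995) had 138.1 and 129.0 CPM in ‘Mosaic’, 162.0 and 28.95 CPM in ‘Ubiquitous’ and 68.5 and 173.7 CPM in ‘Uninjected’ libraries. The groups overlapped, and the low values were those of both shallow libraries, with 1 and 4 counts. The interval of that single count, 0.733 to 161 CPM, takes in both ‘Mosaic’ values, and the 4 deeper libraries spanned only 129.0 to 173.7 CPM. The gene bmp7a (ENSDARG00000018260) had 82.9 and 79.1 CPM in ‘Mosaic’, 63.7 and 0 CPM in ‘Ubiquitous’ and 17.1 and 112.4 CPM in ‘Uninjected’ libraries. Here too both shallow libraries were lowest, and 0 counts in the second ‘Ubiquitous’ library allow up to 86.9 CPM by the limit of 3 counts, above both ‘Mosaic’ values. No difference of either gene was detectable at this depth: on the rlog scale the differences of BMP4 lay between -0.11 and 0.24 and those of bmp7a between -0.23 and 0.42 in the 3 comparisons, with standard errors of 0.27. The bmp7a difference between ‘Mosaic’ and ‘Ubiquitous’, 0.42 (95% interval -0.14 to 0.97, adjusted p = 0.522 from limma's test), was the largest of these, and it was 0.20 with the second ‘Ubiquitous’ library left out. The sign of the BMP4 difference turned when a shallow library was left out: the value between ‘Mosaic’ and ‘Uninjected’ was 0.12 with all libraries and -0.17 without the first ‘Uninjected’ library. Summed over BMP2, BMP4 and bmp7a, the ligands took 239 and 237 CPM in ‘Mosaic’, 278 and 86.9 CPM in ‘Ubiquitous’ and 171 and 335 CPM in ‘Uninjected’ libraries.

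Extracellular and membrane regulators came next. Chordin, encoded by chrd, is the organiser's BMP antagonist, and Sizzled, encoded by szl, is a ventral protein that inhibits the protease that cuts Chordin and is itself induced by BMP. The gene chrd (ENSDARG00000006110) had 1003 and 1694 CPM in ‘Mosaic’, 1751 and 1361 CPM in ‘Ubiquitous’ and 1011 and 1020 CPM in ‘Uninjected’ libraries. Both ‘Ubiquitous’ libraries lay above both ‘Uninjected’ libraries, while 1 ‘Mosaic’ library was at the ‘Uninjected’ level and the other at the ‘Ubiquitous’ level. The ‘Mosaic’ libraries differed by more than counting error, since 218 counts gave an interval of 875 to 1146 CPM in the first and 407 counts one of 1534 to 1867 CPM in the second. On the rlog scale chrd averaged 7.70 ± 0.46 in ‘Mosaic’, 7.88 ± 0.19 in ‘Ubiquitous’ and 7.37 ± 0.11 in ‘Uninjected’ cells (SD, n = 2 each). Its difference between ‘Ubiquitous’ and ‘Uninjected’ was 0.50 (95% interval -0.03 to 1.04, adjusted p = 0.761 from limma's test), above that of 97.2% of all tested genes but not past the threshold. The deeper library of each of these groups alone gave 0.71, with 1 library set against 1 and the spread taken from the ‘Mosaic’ pair. Between ‘Mosaic’ and ‘Uninjected’ the chrd difference was 0.33 (-0.21 to 0.87, adjusted p = 0.69 from limma's test), and 0.01 without the second ‘Mosaic’ library.

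The gene szl (ENSDARG00000099637) had 133.5 and 141.5 CPM in ‘Mosaic’, 162.0 and 57.9 CPM in ‘Ubiquitous’ and 102.8 and 214.6 CPM in ‘Uninjected’ libraries. Its groups overlapped, and both shallow libraries again held the lowest values, with 2 and 6 counts. Its differences were -0.08, -0.23 and 0.15 on the rlog scale (standard error 0.25), with 95% intervals of -0.62 to 0.45 for ‘Mosaic’ against ‘Uninjected’ cells, -0.77 to 0.30 for ‘Ubiquitous’ against ‘Uninjected’ cells and -0.38 to 0.68 for ‘Mosaic’ against ‘Ubiquitous’ cells. BAMBI is a membrane protein that resembles a type I receptor without the kinase, dampens BMP and TGF-β signals and is expressed together with BMP4 in vertebrate embryos. BAMBI (ENSDARG00000055381) had 92.1 and 50.0 CPM in ‘Mosaic’, 112.8 and 115.8 CPM in ‘Ubiquitous’ and 171.4 and 126.7 CPM in ‘Uninjected’ libraries. The 3 groups did not overlap in this row, with ‘Mosaic’ lowest and ‘Uninjected’ highest. Of all tested genes, 19.9% had ‘Mosaic’ wholly below ‘Uninjected’, 18.5% ‘Mosaic’ below ‘Ubiquitous’ and 19.6% ‘Ubiquitous’ below ‘Uninjected’. The share with all 3 groups apart was not counted. On the rlog scale this BAMBI row averaged 3.72 ± 0.31 in ‘Mosaic’, 4.10 ± 0.01 in ‘Ubiquitous’ and 4.31 ± 0.22 in ‘Uninjected’ cells (SD, n = 2 each). The difference between ‘Mosaic’ and ‘Uninjected’ was -0.58 (95% interval -1.08 to -0.08, adjusted p = 0.346 from limma's test), and without the second ‘Mosaic’ library it was -0.36. Between ‘Mosaic’ and ‘Ubiquitous’ it was -0.38 (adjusted p = 0.52), and between ‘Ubiquitous’ and ‘Uninjected’ -0.20 (adjusted p = 0.941, both from limma's test). These values were -0.16 without the second ‘Mosaic’ library and -0.05 without the first ‘Uninjected’ library. The other BAMBI row (ENSDARG00000099677) held 8 and 3 counts in ‘Mosaic’, 1 and 0 in both ‘Ubiquitous’ and 0 and 4 in ‘Uninjected’ libraries and was not tested. The rows thus pointed in opposite directions: with no filter on low values the second row's difference between ‘Mosaic’ and ‘Uninjected’ was 0.33 on the rlog scale (unadjusted p = 0.0488, adjusted p = 0.807 from limma's test). In the same fit the second row's difference between ‘Mosaic’ and ‘Ubiquitous’ was 0.36 (unadjusted p = 0.0347, adjusted p = 0.684 from limma's test). The rows may share reads if the paralogs are alike near their 3' ends, which was not tested. Summed, both rows took 128.9 and 62.4 CPM in ‘Mosaic’, 115.7 and 115.8 CPM in ‘Ubiquitous’ and 171.4 and 134.9 CPM in ‘Uninjected’ libraries. In this sum ‘Mosaic’ and ‘Ubiquitous’ overlapped.

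The transcriptional repressors vox, vent and ved keep organiser genes such as chrd and goosecoid off on the ventral side and overlap in function, and vox and vent lie next to each other in the genome. The gene vox (ENSDARG00000099761) had 299 and 266 CPM in ‘Mosaic’, 298 and 434 CPM in ‘Ubiquitous’ and 326 and 370 CPM in ‘Uninjected’ libraries. Both ‘Mosaic’ libraries lay below both ‘Uninjected’ libraries on the rlog scale, by a small margin, and the ‘Ubiquitous’ libraries reached below and above that range. Its rlog values averaged 5.55 ± 0.07 in ‘Mosaic’, 5.77 ± 0.28 in ‘Ubiquitous’ and 5.74 ± 0.01 in ‘Uninjected’ cells (SD, n = 2 each). The differences were -0.19 for ‘Mosaic’ against ‘Uninjected’ cells (95% interval -0.67 to 0.29), 0.03 for ‘Ubiquitous’ against ‘Uninjected’ cells (-0.45 to 0.51) and -0.22 for ‘Mosaic’ against ‘Ubiquitous’ cells (-0.69 to 0.26), with adjusted p-values of 0.8, 0.996 and 0.721 from limma's test. Without the second ‘Ubiquitous’ library the last was -0.016 and the one between ‘Ubiquitous’ and ‘Uninjected’ -0.17. The range of vox over the 6 libraries, 0.47 on the rlog scale, was smaller than that of any other of the 8 rows, and 22.7% of all tested genes had a smaller one. The gene vent (ENSDARG00000100483) held 2 and 3 counts in ‘Mosaic’, 6 and 0 in both ‘Ubiquitous’ and 1 and 6 in ‘Uninjected’ libraries. These counts are too few to compare, since 0 counts in the second ‘Ubiquitous’ library allow up to 86.9 CPM by the same limit and the highest vent value was 17.4 CPM. The gene ved (ENSDARG00000102389) was counted once, in the second ‘Uninjected’ library, and its 0 counts elsewhere allow, by the limit of 3 counts, 8.68 CPM in the deepest of the other libraries.

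ID3 encodes an inhibitor of basic helix-loop-helix factors and is a direct target of BMP Smads in many vertebrate cells. ID3 (ENSDARG00000054823) had 41.4 and 45.8 CPM in ‘Mosaic’, 66.6 and 115.8 CPM in ‘Ubiquitous’ and 137.1 and 91.97 CPM in ‘Uninjected’ libraries, from 9 and 11, 23 and 4, and 8 and 45 counts. Both ‘Mosaic’ libraries lay below the other 4, and the ‘Ubiquitous’ and ‘Uninjected’ libraries overlapped. On the rlog scale it averaged 3.20 ± 0.05 in ‘Mosaic’, 3.63 ± 0.25 in ‘Ubiquitous’ and 3.84 ± 0.24 in ‘Uninjected’ cells (SD, n = 2 each). Its difference between ‘Mosaic’ and ‘Uninjected’, -0.64 (95% interval -1.14 to -0.15), was lower than that of any other of the 8 rows and was undercut by 2.6% of all tested genes, with an unadjusted p-value of 0.0142 and an adjusted p-value of 0.299 from limma's test. Between ‘Mosaic’ and ‘Ubiquitous’ it was -0.43 (-0.92 to 0.07, adjusted p = 0.449), and between ‘Ubiquitous’ and ‘Uninjected’ -0.21 (-0.71 to 0.28, adjusted p = 0.938, both from limma's test). Without the second ‘Ubiquitous’ library the difference between ‘Mosaic’ and ‘Ubiquitous’ was -0.25, and that between ‘Ubiquitous’ and ‘Uninjected’ was -0.04 without the first library of either group. Without the first ‘Uninjected’ library the difference between ‘Mosaic’ and ‘Uninjected’ was -0.47.

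**Figure D2:**
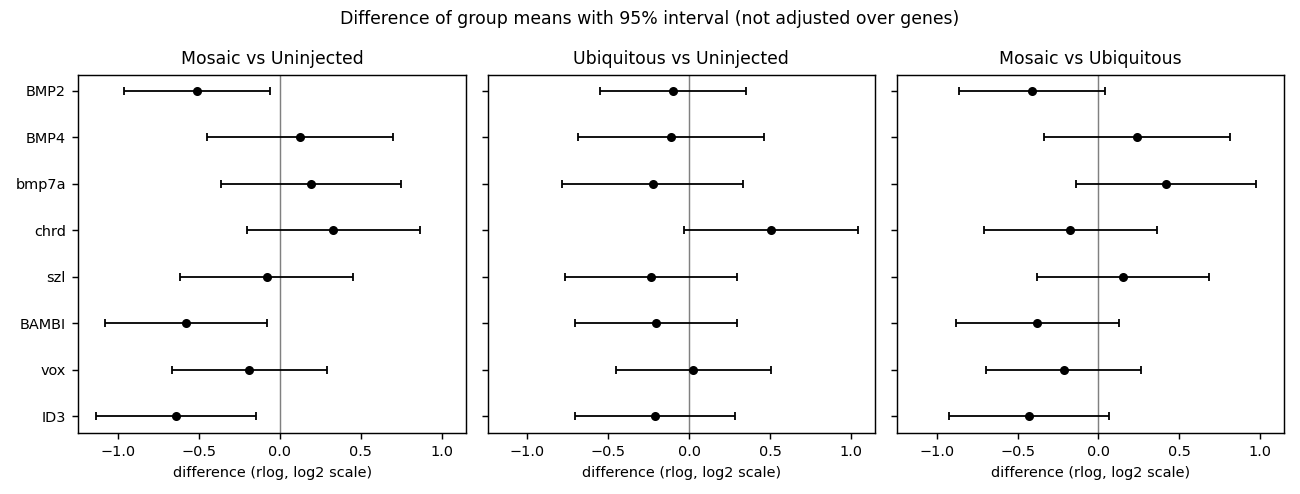
Differences of group means on the rlog scale (horizontal axis, log2 units) for the 8 tested rows in each comparison, first group minus second. Points are limma's estimates and bars their 95% intervals, not adjusted over genes. Between ‘Mosaic’ and ‘Uninjected’ the bars of BMP2, BAMBI and ID3 do not reach 0, and in the other comparisons every bar does.

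The 8 rows thus varied in 3 ways across the libraries, a grouping made after their values were seen and given as a description. In BMP2, BAMBI (ENSDARG00000055381) and ID3 both ‘Mosaic’ libraries lay below the other 4 on the rlog scale, as they did in 10.3% of all tested genes. Among all 6 libraries, both shallow ones held the highest values of BMP2 and ID3, and the first ‘Uninjected’ library the highest of BAMBI. For BMP2 the second ‘Ubiquitous’ library was barely above the first, at 2.8916 against 2.8888 on the rlog scale. Summed, these 3 rows took 152 and 125 CPM in ‘Mosaic’, 232 and 290 CPM in ‘Ubiquitous’ and 394 and 268 CPM in ‘Uninjected’ libraries. In BMP4, bmp7a and szl both shallow libraries lay below the other 4, as they did in 12.9% of all tested genes, and these are libraries of different groups. The pairs of these last 3 genes correlated with Pearson's r between 0.88 and 0.93 over the 6 libraries, and BMP2, BAMBI and ID3 with r between 0.76 and 0.92, where the points share each library's depth. Pairs with 1 gene from each of these sets had r between -0.67 and -0.18. The sets were sorted by these same values, so the correlations within and between them describe the sorting and show no relation between the genes. The part of depth in either set was not tested. In chrd and vox neither the ‘Mosaic’ pair nor the shallow pair of libraries lay below the other 4. With BMP2, BAMBI and ID3, vox correlated at r between 0.48 and 0.73 and chrd at r between -0.54 and -0.02. With BMP4, bmp7a and szl, vox had r between -0.74 and -0.57 and chrd r between -0.16 and 0.015. Like BMP2 and ID3, vox thus ran against BMP4, bmp7a and szl. Counting rows whose libraries did not overlap between the groups, 4 of 8 (BMP2, BAMBI, ID3 and vox) were lower in ‘Mosaic’ than in ‘Uninjected’ and 0 higher, against 19.9% and 23.1% of all tested genes. Between ‘Ubiquitous’ and ‘Uninjected’ 1 was lower (BAMBI) and 1 higher (chrd), against 19.6% and 13.7%. Between ‘Mosaic’ and ‘Ubiquitous’ 3 were lower (BMP2, BAMBI and ID3) and 1 higher (bmp7a), against 18.5% and 28.1%. Each pair of these comparisons shares the libraries of a group, so their values do not stand alone: the first 2 share ‘Uninjected’ and the first and last ‘Mosaic’.

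**Figure D3:**
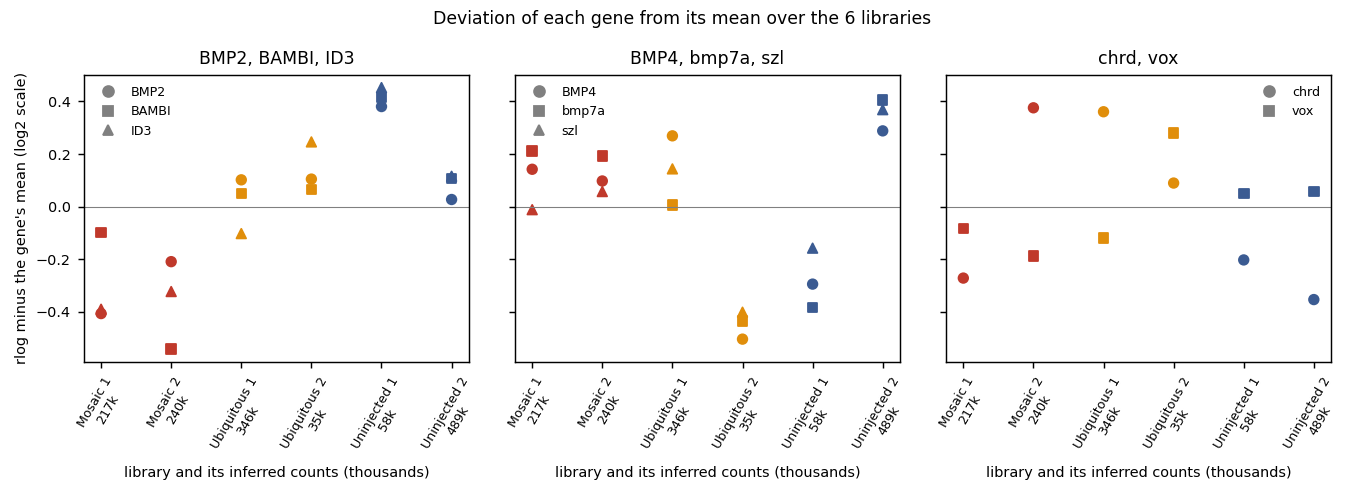
Deviation of the rlog value from each gene's mean over the 6 libraries (vertical axis, log2 units) for 8 rows in 3 sets, with libraries on the horizontal axis labelled by their inferred counts, where BAMBI is ENSDARG00000055381. BMP2, BAMBI and ID3 are below their means in both ‘Mosaic’ libraries, and BMP4, bmp7a and szl are below theirs in the second ‘Ubiquitous’ and first ‘Uninjected’ libraries.

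Other genes of the pathway were read from lists of ligands, receptors and Smads, extracellular modulators, ventral and BMP target genes, and dorsal organiser and axial genes. None of their 1, 3, 2, 12 and 4 tested rows passed in any comparison. Among the ligands, 3 of 11 matched rows had a count, and only admp, a BMP ligand expressed in the organiser, was tested. It had rlog values of 2.13 and 2.41 in ‘Mosaic’, 2.76 and 2.22 in both ‘Ubiquitous’ and 2.96 and 2.57 in ‘Uninjected’ libraries, with a difference of -0.49 between ‘Mosaic’ and ‘Uninjected’ (adjusted p = 0.42 from limma's test). The ligands gdf6a and bmp16 were each seen in 1 ‘Mosaic’ library only, with 2 counts and 1 count (8.33 and 4.60 CPM), too few to compare. Of 21 matched rows of receptors and Smads, 15 had a count and 3 were tested. The level of SMAD5, the Smad through which ventral BMP signalling runs in zebrafish, was 368 and 724 CPM in ‘Mosaic’, 518 and 637 CPM in ‘Ubiquitous’ and 480 and 437 CPM in ‘Uninjected’ libraries, which overlapped between ‘Mosaic’ and each other group. The type I receptor gene acvr1l had rlog values of 3.04 and 3.38 in ‘Mosaic’, 3.60 and 3.54 in both ‘Ubiquitous’ and 3.45 and 3.51 in ‘Uninjected’ libraries. SMAD7, an inhibitory Smad, had 3.09 and 3.03, 3.24 and 3.04, and 3.48 and 3.64 on the same scale in these groups, so both β-catCA groups lay below ‘Uninjected’, with differences of -0.50 and -0.42 (adjusted p = 0.405 and 0.788 from limma's test).

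Among extracellular modulators 6 of 15 matched rows had a count and 2 were tested. BMP1 (ENSDARG00000028071), which belongs to the family of proteases that cut Chordin, averaged 3.29 in ‘Mosaic’, 3.66 in ‘Ubiquitous’ and 3.16 in ‘Uninjected’ cells on the rlog scale, and its difference of 0.51 between ‘Ubiquitous’ and ‘Uninjected’ had an unadjusted p-value of 0.0373 and an adjusted p-value of 0.7 from limma's test. FST (ENSDARG00000052846), which encodes the activin and BMP antagonist Follistatin, had differences between -0.23 and -0.02 in the 3 comparisons. TLL1, a Chordin-cutting protease in vertebrates, was seen in 1 ‘Mosaic’ library and both ‘Uninjected’ libraries at 4.60 to 17.1 CPM. These values rest on 1 count, and on 1 and 3 counts, too few to compare. Among ventral and BMP target genes, 12 of 19 matched rows were tested. In ‘Mosaic’ cells 5 of the 12 averaged above ‘Uninjected’ cells and 7 below, with a median difference of -0.17 on the rlog scale. TFAP2A, an ectodermal transcription factor that BMP induces, had rlog values of 6.12 and 6.21 in ‘Mosaic’, 5.92 and 5.66 in both ‘Ubiquitous’ and 5.44 and 5.73 in ‘Uninjected’ libraries, so that its difference of 0.58 between ‘Mosaic’ and ‘Uninjected’ (adjusted p = 0.318 from limma's test) was of opposite sign to that of ID3. ID1, another BMP target of the same family as ID3, had 5.24 and 5.64, 5.39 and 5.55, and 5.75 and 5.93 on this scale, lowest in the β-catCA groups (difference -0.40 between ‘Mosaic’ and ‘Uninjected’, adjusted p = 0.542 from limma's test). TFAP2C had 5.09 and 5.19, 5.32 and 4.46, and 5.56 and 5.53, with its lowest value in the shallowest library.

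Of the dorsal organiser and axial genes, 9 of 12 matched rows had a count and 4 were tested: FOXA2, frzb, noto and GSC. The levels of FOXA2, a transcription factor of axial mesendoderm, were 87.5 and 229 CPM in ‘Mosaic’, 205 and 145 CPM in ‘Ubiquitous’ and 257 and 235 CPM in ‘Uninjected’ libraries. The gene frzb, which encodes a secreted Wnt inhibitor, had 106 and 99.9 CPM, 150 and 174 CPM, and 171 and 127 CPM in these groups. The notochord regulator noto had 69.0 and 79.1 CPM in ‘Mosaic’, 101 and 174 CPM in ‘Ubiquitous’ and 34.3 and 38.8 CPM in ‘Uninjected’ libraries, with no overlap between any of the groups. Of all tested genes, 23.1% had ‘Mosaic’ wholly above ‘Uninjected’, 13.7% ‘Ubiquitous’ above ‘Uninjected’ and 18.5% ‘Mosaic’ below ‘Ubiquitous’. How many had all 3 groups apart was not counted. The difference of noto between ‘Ubiquitous’ and ‘Uninjected’ was 0.81 on the rlog scale (unadjusted p = 0.00238, adjusted p = 0.3 from limma's test). GSC is goosecoid, a target of the vox, vent and ved repressors, and was chosen after its values were seen. It had 36.8 and 29.1 CPM in ‘Mosaic’, 31.8 and 57.9 CPM in ‘Ubiquitous’ and 102.8 and 136.9 CPM in ‘Uninjected’ libraries. Its difference between ‘Mosaic’ and ‘Uninjected’, -0.85 (95% interval -1.34 to -0.36, adjusted p = 0.123 from limma's test), had the smallest adjusted p-value of all these lists in that comparison. Between ‘Ubiquitous’ and ‘Uninjected’ the GSC difference was -0.71 (unadjusted p = 0.00664, adjusted p = 0.426 from limma's test), opposite in sign to that of noto. In ‘Ubiquitous’ cells, where chrd averaged above ‘Uninjected’ cells, 2 of these 4 genes did so as well and 2 averaged below.

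**Figure D4:**
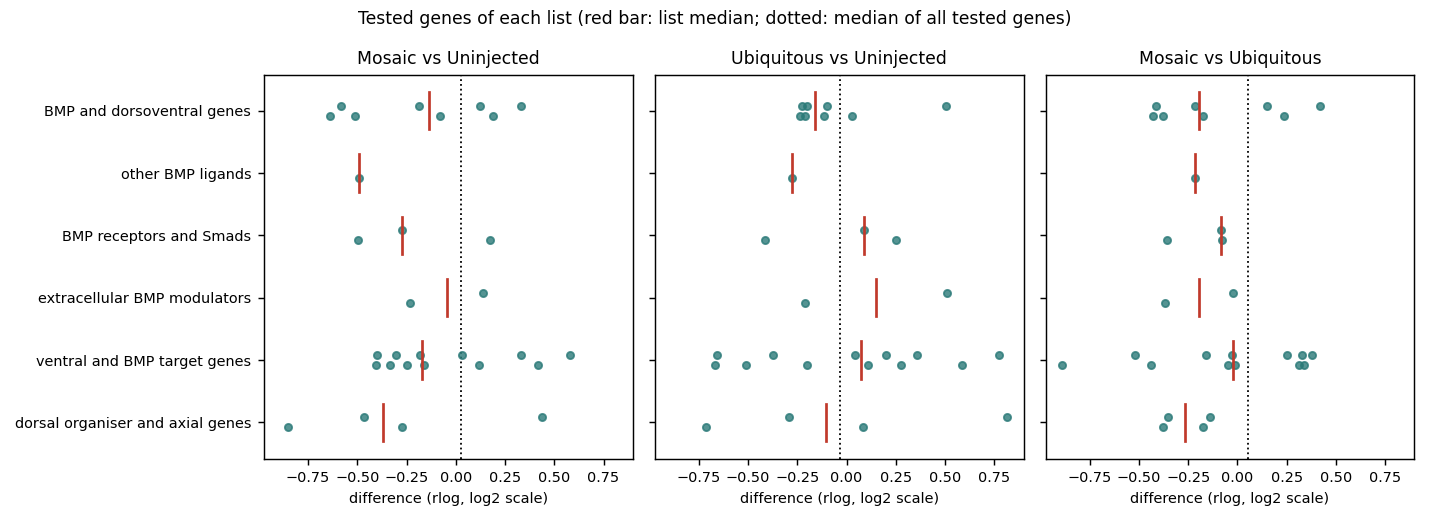
Differences on the rlog scale (horizontal axis, log2 units, first group minus second) of the tested genes of each list (vertical axis) in the 3 comparisons. Points are genes, red bars list medians and the dotted line the median of all 3905 tested genes, and no point passed an adjusted p-value of 0.1.

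Marker genes of other cell types were set beside these values. Mesoderm markers, all 6 of them tested, summed to 1758 and 1590 CPM in ‘Mosaic’, 4051 and 4343 CPM in ‘Ubiquitous’ and 3907 and 2248 CPM in ‘Uninjected’ libraries, and 1 passed as lower in ‘Mosaic’ than in ‘Uninjected’ and 4 as lower in ‘Mosaic’ than in ‘Ubiquitous’. Markers of the enveloping layer summed to 2532 and 1882 CPM in ‘Mosaic’, 1400 and 984 CPM in ‘Ubiquitous’ and 1594 and 3276 CPM in ‘Uninjected’ libraries. Of these markers 1 of 4 tested passed, as higher in ‘Mosaic’ than in ‘Ubiquitous’. In that comparison 3 of the 4 averaged higher in ‘Mosaic’ and 1 lower, and against ‘Uninjected’ 2 averaged higher and 2 lower. Germ cell markers summed to 23.0 and 8.33 CPM in ‘Mosaic’, 57.9 and 86.9 CPM in ‘Ubiquitous’ and 206 and 129 CPM in ‘Uninjected’ libraries. These sums rest on few counts, 5 and 2, 20 and 3, and 12 and 63 in these groups. Endoderm markers summed to 428 and 425 CPM, 634 and 463 CPM, and 823 and 836 CPM in the same order. Of the germ cell markers 1 of 1 tested, and of the endoderm markers 1 of 4, passed as lower in ‘Mosaic’ than in ‘Uninjected’, while none of the 6 neural, 5 non-neural ectoderm or 4 axial mesoderm markers tested passed in any comparison. The 4 axial and 5 non-neural ectoderm markers are also genes of the pathway lists above. So are 1 tested mesoderm marker and 1 neural marker that was not tested. Non-neural ectoderm markers summed to 934 and 966 CPM in ‘Mosaic’, 926 and 434 CPM in ‘Ubiquitous’ and 788 and 1155 CPM in ‘Uninjected’ libraries, with the shallow libraries lowest, as in BMP4, bmp7a and szl. Neural ectoderm markers were lowest there too, with 2140 and 3222 CPM, 2552 and 1100 CPM, and 1954 and 3025 CPM in these groups. Markers of the yolk syncytial layer were at or near 0, with 0 to 4 counts in a library, and mxtx1 and slc40a1 had none in any library. The part of cell composition and of depth in the values of BMP2, BAMBI, ID3, BMP4, bmp7a and szl was not tested.

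Genes with the profile most like that of the ventral repressors and szl were read from the 3905 tested genes by Pearson's r over the 6 libraries, as a description. For vox they were CNIH1 (r = 0.99), UTP25 (r = 0.98) and gtsf1 (r = 0.97), whose values shared the high second ‘Ubiquitous’ library and the low second ‘Mosaic’ library. CNIH1, for example, had rlog values of 7.83 and 7.72 in ‘Mosaic’, 7.80 and 8.24 in both ‘Ubiquitous’ and 7.93 and 7.93 in ‘Uninjected’ libraries. For szl they were SNRNP70 (r = 0.99), rps6kb1b (r = 0.99) and FKBP2 (r = 0.98). The level of rps6kb1b was likewise lowest in the shallow libraries, at 115.8 and 205.6 CPM from 4 and 12 counts, against 331.4 to 570.2 CPM elsewhere. For vent they included ABI1 and pde4dip, and for ved they were pdha1a, olig4 and ube2d2. The profiles of vent and ved rest on a handful of counts and on a single count, and that of ved mostly follows library size, so nothing is read from these likenesses.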

How the data were processed

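RNA-Seq was made by CEL-Seq2, a method that reads the 3' ends of transcripts with molecular identifiers, from sorted cells of 3 groups with 2 libraries each. The authors aligned reads to GRCz10 with Bowtie2 (version 2.3.1), used HTSeq (version 0.6.1) to count them by gene, dropping duplicate identifiers, and deposited rlog values on the log2 scale. All 6 columns were used, and no reads were processed again. The members and lists were chosen with earlier results of these data known.

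Counts were inferred by inverting the rlog transformation (Python 3.11.15, numpy 2.4.6, scipy 1.17.1). They gave the deposited values to within 0.001 for all 14132 genes not listed at 0 in every library, and totals ranged from 34540 to 489310 per library, so that 3 counts, the limit that a count of 0 allows, stand for 86.9 CPM in the shallowest and 6.13 CPM in the deepest. All 6 libraries entered 1 linear model in limma (3.58.1, under R 4.3.3), whose prior variance followed mean expression, and contrasts of the group means were tested two-sided. Genes with a mean rlog under 2 were left out, Benjamini-Hochberg adjustment ran across the remaining 3905, and an adjusted p-value under 0.1 was taken as passing. The fit and the inversion were also run on simulated counts, drawn from the inferred means and put through the same transformation. Such a run cannot check whether the deposited values came from that transformation, and nothing is read from it here.

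Of the 32266 genes, 26433 found a symbol in a table keyed by Ensembl identifier. Synonyms came from a table of the GRCz12tu assembly, which also showed that vox and vent are neighbours. Listed names were matched by symbol, then synonym, then without the paralog letter, and nog1, nog3, chrdl1 and msx1a found no row. By rule, named genes are the members, the 3 genes with the highest mean value in each list, the 3 genes most like vox, vent, ved and szl, since no member passed, and CTNNB1, and 1 of the genes most like vent is not reported here. GSC, mxtx1 and slc40a1 were named outside this rule, after their values were seen. The alternatives dropped the filter or raised it to 4, normalized by quantiles or centred on medians, took other variance priors, fitted only the libraries compared or only the 4 deepest, blocked on the lot number, lowered the threshold to 0.05, ran voom and a negative binomial test on inferred counts, and left out each library. A block with crossed lot numbers was added after seeing the data.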

Additional observations from a re-analysis of the deposited data

How the results depend on the processing

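None of the members passed an adjusted p-value of 0.1 under any alternative that was run, and over 24 differences and 18 alternatives the smallest adjusted p-value was 0.231 (ID3, ‘Mosaic’ with ‘Uninjected’, without the second ‘Uninjected’ library). The counts of all genes that passed, 54 for ‘Mosaic’ with ‘Uninjected’, 19 for ‘Ubiquitous’ with ‘Uninjected’ and 52 for ‘Mosaic’ with ‘Ubiquitous’, moved more: to 6, 7 and 0 with no filter (the unadjusted p-value from limma was under 0.05 for 795, 468 and 950 of 14132), 18, 5 and 24 with a mean rlog of at least 4, and 142, 54 and 159 in the 4 deepest libraries, where ‘Ubiquitous’ and ‘Uninjected’ have 1 library each and the spread comes from the ‘Mosaic’ pair alone. The negative binomial test gave 32, 15 and 14, and voom 65, 26 and 43. An adjusted p-value under 0.05 left 33 in the last comparison. Leaving out each library in turn gave 25 to 64, 14 to 25 and 2 to 67, where the group left with 1 library is assumed to vary like the others. The correlation of deviations between libraries with the same lot number was -0.06, -0.12 and -0.04. These values show no pairing by number but cannot exclude it. The shallow library is the second in ‘Ubiquitous’ and the first in ‘Uninjected’, so depth and lot number are mixed in these deviations. With a replicate block 57, 23 and 50 genes passed, and 57, 21 and 63 with the ‘Uninjected’ numbers crossed.

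Signs of the members' differences, none of which passed, turned in 23 of 423 alternative values. In the 4 deepest libraries those of BMP4 were -0.17 (‘Mosaic’ with ‘Uninjected’) and -0.15 (‘Mosaic’ with ‘Ubiquitous’), bmp7a -0.20 (‘Mosaic’ with ‘Uninjected’), szl -0.12 (‘Mosaic’ with ‘Ubiquitous’), and BMP2 0.075 and vox -0.18 (both ‘Ubiquitous’ with ‘Uninjected’). With voom BMP4 was -0.049 in ‘Mosaic’ with ‘Uninjected’, and BMP2 0.09 and vox -0.10 in ‘Ubiquitous’ with ‘Uninjected’, where the negative binomial test gave vox -0.003. With each library left out, the ranges in ‘Mosaic’ with ‘Uninjected’ were -0.17 to 0.41 for BMP4, -0.20 to 0.59 for bmp7a and -0.35 to 0.18 for szl. In ‘Ubiquitous’ with ‘Uninjected’ they were -0.28 to 0.076 for BMP2, -0.50 to 0.27 for BMP4, -0.62 to 0.17 for bmp7a, -0.17 to 0.23 for vox and -0.51 to 0.038 for szl, and in ‘Mosaic’ with ‘Ubiquitous’ -0.15 to 0.62 for BMP4, -0.50 to 0.15 for chrd and -0.12 to 0.42 for szl. The cause of these shifts was not tested.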
